A study of Xenopus laevis x Xenopus muelleri with 8 samples.

Results

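The 8 ovary arrays of a hybrid frog study fell into 2 sets of 4 that cut across its study groups, and the expression differences between these sets are described here across genes. Set 1 holds sex-reversed replicates 3 and 4 with normal replicates 1 and 4, and set 2 holds sex-reversed replicates 1 and 2 with normal replicates 2 and 3. Together they make up all 8 arrays of the series, and every probe set was described. A probe set is a group of oligonucleotides read together as 1 value, and some are annotated to several genes. The sets were chosen by clustering these same array values, so differences in level between them are given as a description with no test, and only effects of sex reversal were tested. The labels do not say what the sets stand for, and no label names a batch, clutch or date.

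All animals were hybrids of a Xenopus laevis mother (Cape of South Africa) and a Xenopus muelleri father (Swaziland), raised to sexual maturity in a 12L:12D light cycle. The study compared 4 ovaries of sex-reversed animals with 4 ovaries of normal animals, each a biological replicate by its title. The labels used here do not state the method of sex reversal or the kinship of the animals, and p-values measure only the spread between these 8 samples. The source name of every array said testis, while titles and descriptions said ovary. Sex-reversed replicate 4, an array of set 1, also had normal in its source name, and it was grouped by its title. The values are log2 expression units, in which a difference of 1 is a 2-fold change, and their precision is limited by the small number of arrays.

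A mature frog ovary is mostly oocyte by RNA mass, and oocytes store large amounts of maternal transcripts for the embryo. Xenopus laevis is an allotetraploid, so many genes are present as a pair of homeologs, marked .L and .S for the long and short chromosomes of each pair. The 8 measured oocyte markers, among them egg envelope and germ plasm genes, had mean levels of 9.56 to 9.97 in set 1 arrays and 9.72 to 10.08 in set 2 arrays. Of the 7 testis and sperm markers only odf3 was measured, by its 2 homeologs. Both lay below the lower quartile of the arrays, with mean levels of 2.76 to 3.06 in set 1 and 2.61 to 3.0 in set 2. Both measured leukocyte markers also lay below it, at 3.23 to 3.54 in set 1 and 3.43 to 3.58 in set 2. In whole tissue, fewer cells of a type and less RNA per cell cannot be told apart. Array medians lay between 6.0 and 6.04, a level that the normalisation sets alike for all arrays.

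Arrays of a set were slightly more alike than arrays of different sets, whatever their study group. The clustering that chose the sets used this likeness, so it is only described, as is the sum of squares between the sets. Over all probe sets, the median Pearson correlation was 0.964 for 4 pairs of the same set and group and 0.959 for 8 pairs of the same set and different groups. Between sets it was 0.949 for 8 pairs of the same group and 0.946 for 8 pairs of different groups. The pairs share probes and normalisation, and the correlations are across probe sets. Of the sum of squares between arrays, 29.2% lay between the sets, 14.4% between the study groups and 12.7% in their combination. Any balanced split of the 8 arrays holds some share, and those of other splits are not given here. No effect of sex reversal is therefore read from the 14.4%. The median difference over all probe sets was -0.00099 and its median size 0.2, and 573 probe sets differed by 1 or more between the sets, 360 of them with overlapping values.

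In 861 probe sets (7.5% of all measured) every array of one set lay above every array of the other, 452 higher and 409 lower in set 1. The rule that chose the sets used this contrast, and nothing is read from the size of that count. For scale, 466 probe sets (4.06%) did not overlap between sex-reversed and normal ovaries. Only 15 probe sets (0.131%) left a gap of 2 or more log2 units between the sets and are called switch-like below, 8 of them higher and 7 lower in set 1. With 1 array left out, which can only widen a gap, this count was 17 to 31, the highest without normal replicate 3. A further 198 (1.72%) did not overlap, had a gap under 2 and a fitted difference of 1 or more, and these are called continuous, 96 higher and 102 lower in set 1. The other 648 differed by less than 1, with a median size of 0.48. The name continuous refers only to the gap between the sets. Some probe sets of that class had a gap of 2 or more elsewhere among their sorted arrays. Such splits were seen in tmco1.S (5.69), kansl2.S (4.53) and sirt5.L (4.03). The switch-like probe sets held 8.27% of the sum of squares between the sets and the continuous ones 20.4%. Without both classes 23.4% of the sum of squares between arrays still lay between the sets. Median correlations were then 0.965 and 0.96 within sets (same and different groups) and 0.956 and 0.953 between sets. Their ranges overlapped, the lowest within a set being 0.956 (different groups) and the highest between sets 0.96 (same group). Between sex-reversed and normal ovaries, 0 probe sets had a gap of 2, and 34 met the rule for continuous ones.

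**Figure D1:**
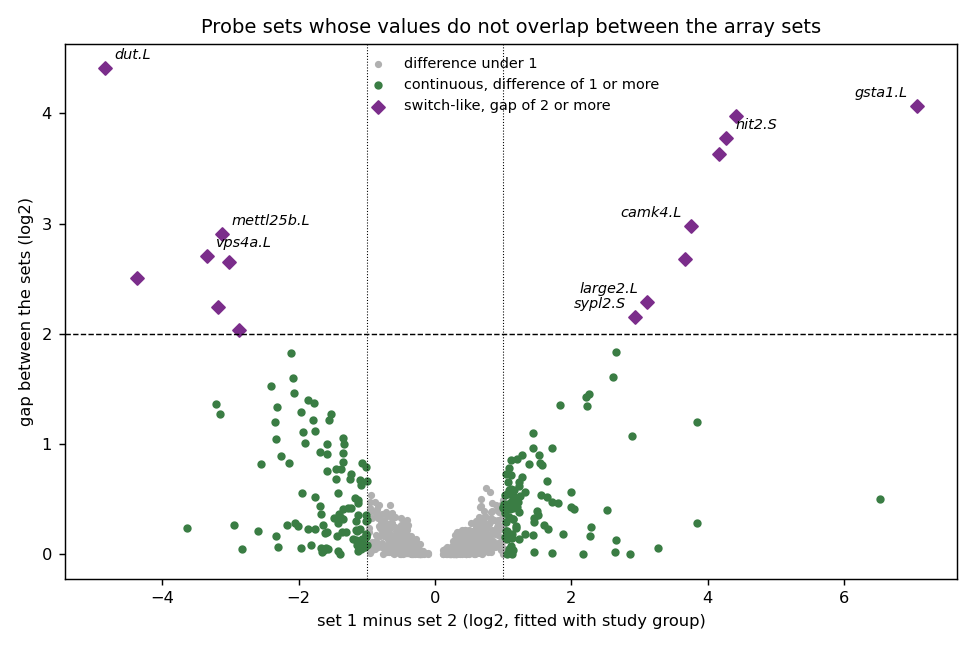
Each point is 1 of the 861 probe sets that did not overlap between the sets, by its fitted difference (set 1 minus set 2, log2, study group in the fit) and the gap between the nearest arrays of the sets (log2). Diamonds above the dashed line are the 15 switch-like probe sets, of which the 8 with a gene symbol are labelled, and the dotted lines mark a difference of 1 in either direction.

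The 8 named switch-like genes have roles in detoxification, amide metabolism, signalling, sugar transfer, nucleotide metabolism and membranes. The largest difference was in gsta1.L, a glutathione S-transferase, which joins glutathione to reactive compounds for their removal. In set 1 it measured 7.87 and 10.78 in sex-reversed and 11.2 and 11.19 in normal ovaries, against 2.95 and 2.87 in sex-reversed and 3.15 and 3.8 in normal ovaries of set 2. All 4 set 2 arrays lay at the dim end of the array, and sex-reversed replicate 3 was the lowest of set 1 by a wide margin. The fitted difference was 7.07 and the gap 4.07. Its homeolog gsta1.S ran the same way with a difference of 1.08, at 6.31 and 6.67 in sex-reversed and 7.79 and 7.72 in normal ovaries of set 1, against 6.0 and 6.14 in sex-reversed and 5.72 and 6.28 in normal ovaries of set 2. The sets were separated by 0.03 in the homeolog, and its set 1 level was carried mainly by the normal ovaries.

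A further 4 named genes were switched high in set 1. The gene nit2.S, an omega-amidase of the nitrilase family, measured 8.25 and 8.15 in sex-reversed and 8.91 and 8.18 in normal ovaries of set 1, against 4.06 and 4.37 in sex-reversed and 4.16 and 3.81 in normal ovaries of set 2. Its difference was 4.27 and its gap 3.77. The kinase gene camk4.L, whose product acts downstream of calcium and calmodulin, measured 8.44 and 8.33 in sex-reversed and 8.11 and 8.37 in normal ovaries of set 1, against 4.2 and 4.53 in sex-reversed and 5.13 and 4.39 in normal ovaries of set 2. It differed by 3.75, and the sex-reversed and normal arrays were interleaved in both sets.

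The glycosyltransferase gene large2.L, which in mammals extends the sugar chain of dystroglycan, measured 7.97 and 8.27 in sex-reversed and 7.4 and 7.39 in normal ovaries of set 1, against 3.77 and 5.09 in sex-reversed and 4.98 and 4.73 in normal ovaries of set 2. It differed by 3.11, whereas its homeolog large2.S differed by 0.22 with overlapping sets. The membrane protein gene sypl2.S, known from muscle membrane junctions in mammals, measured 7.85 and 8.14 in sex-reversed and 8.37 and 8.46 in normal ovaries of set 1, against 5.7 and 5.01 in sex-reversed and 5.7 and 4.68 in normal ovaries of set 2. With a difference of 2.93 and a gap of 2.15, it lay closest above the limit among the named genes.

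A further 3 named genes were switched low in set 1. The gene dut.L, a dUTPase that keeps uracil out of DNA, measured 3.98 and 3.85 in sex-reversed and 4.38 and 3.83 in normal ovaries of set 1, against 8.87 and 8.81 in sex-reversed and 8.79 and 8.92 in normal ovaries of set 2. Its difference was -4.84 and its gap of 4.41 was the widest of the 15. The gene mettl25b.L measured 5.32 and 4.94 in sex-reversed and 5.21 and 5.29 in normal ovaries of set 1, against 8.38 and 8.35 in sex-reversed and 8.27 and 8.23 in normal ovaries of set 2. It differed by -3.12, with an SD of 0.07 in set 2. The gene vps4a.L, an ATPase that takes apart ESCRT-III filaments after membrane scission, measured 3.82 and 4.48 in sex-reversed and 4.27 and 4.86 in normal ovaries of set 1, against 7.56 and 7.59 in sex-reversed and 7.62 and 8.06 in normal ovaries of set 2. Its difference was -3.35 and its gap 2.7, and normal replicate 3 was the highest of set 2.

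**Figure D2:**
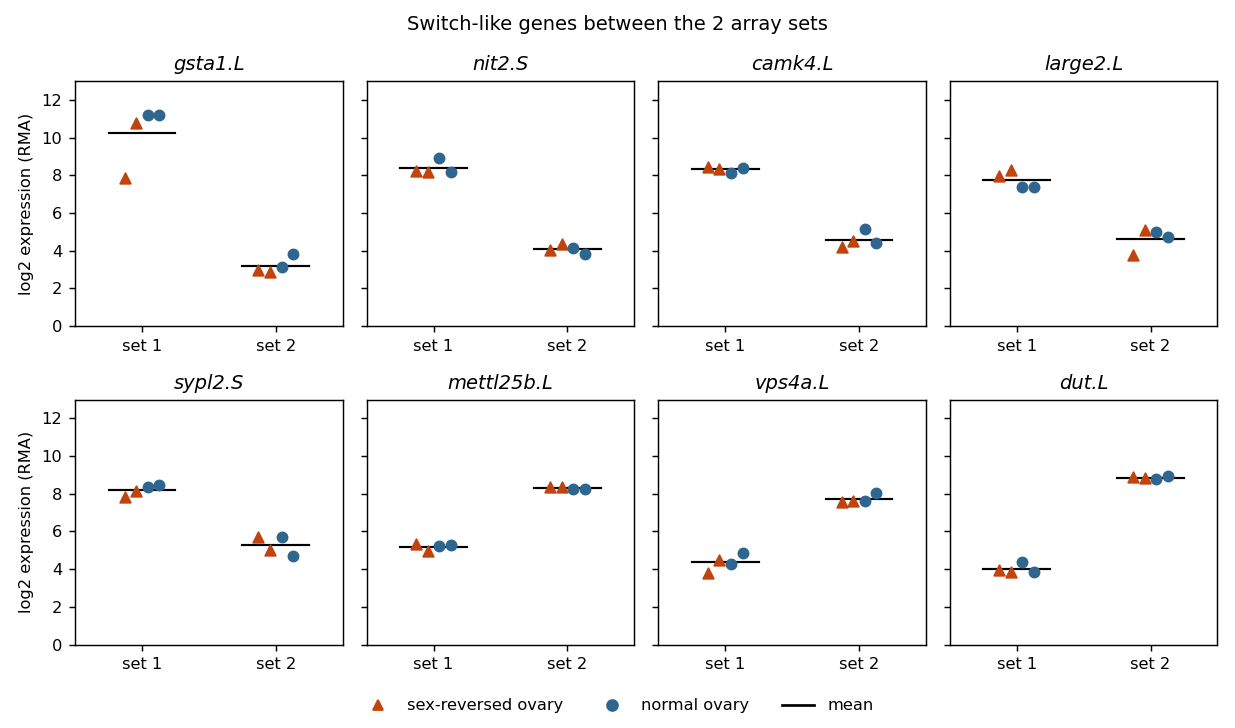
Log2 expression (RMA) of the 8 named switch-like genes on each array, set 1 at the left and set 2 at the right of each panel, with triangles for sex-reversed ovary, circles for normal ovary and a line at the mean of the 4 arrays. Every gene leaves at least 2.15 log2 units empty between the sets, and sex-reversed replicate 3 lies at 7.87 for gsta1.L.

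The other 7 switch-like probe sets had no gene symbol in the annotation used here, and their differences ran between -4.37 and 4.42. In 4 of the 15, the mean of the lower set was under the lower quartile of every array, which lay at 3.99 to 4.05. Just outside the limit lay the tubulin gene tubal3.1.S with a gap of 1.84, cipc.S with 1.83 and cmtm8.L with 1.6. Just inside it lay sypl2.S with 2.15, large2.L with 2.29 and vps4a.L with 2.7. The limit of 2 is a cutoff within a falling range of gaps. A gap under 1 was seen in 816 probe sets and a gap between 1 and 2 in 30. Counts were 20 at a gap of 1.5 or more, 15 at 2 or more and 5 at 3 or more. The sets are balanced over study group, and the largest sex-reversed minus normal difference among the 15 was 1.22 in size. At an unadjusted p of 0.05 in limma, 1 of the 15 differed between the study groups, against 7.91% of all probe sets. The 15 were picked on these same values, so nothing is read from that count.

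The switch between the sets was one of many ways in which arrays split. A gap of 2 or more between neighbouring values of the 8 sorted arrays occurred somewhere in 282 probe sets (2.46%). In 96 of these 1 array stood apart, in 82 a pair of arrays, in 75 a group of 3 and in 29 the arrays split 4 against 4. Of the 29, 15 split set against set, 0 split sex-reversed against normal and 14 split in another way. Of the 82 pairs, 75 lay inside 1 set, 51 in set 1 and 24 in set 2. Of the 75 groups of 3, 61 lay inside 1 set. Inside set 1, the pair had the same study group in 30 probe sets and both groups in 21, and inside set 2 these counts were 8 and 16. The arrays that stood apart in pairs or groups of 3 were thus mostly of 1 set, and the values that chose the sets include these probe sets.

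The continuous genes named here are those of highest moderated t, used as a ranking only. Among those higher in set 1, the largest difference was in rbmx.S, an RNA-binding protein gene of splicing. It measured 6.29 and 4.9 in sex-reversed and 6.66 and 6.48 in normal ovaries of set 1, against 3.0 and 2.91 in sex-reversed and 3.05 and 3.82 in normal ovaries of set 2, a difference of 2.89. The alpha tubulin gene tubal3.1.S measured 6.79 and 6.42 in sex-reversed and 6.56 and 6.69 in normal ovaries of set 1, against 4.14 and 4.58 in sex-reversed and 3.82 and 3.32 in normal ovaries of set 2, a difference of 2.65. Both probe sets were dim in set 2, and one array of either set stood apart from the rest for rbmx.S. Another rbmx.S probe set averaged 8.54 in set 1 and 7.89 in set 2, with overlapping values. The homeolog tubal3.1.L ran the opposite way with overlap, at 4.54 in set 1 and 5.74 in set 2.

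The glycolytic enzyme gene tpi1.S, triosephosphate isomerase, averaged 5.32 ± 0.46 in set 1 and 3.09 ± 0.23 in set 2 (SD, n = 4 each). Another tpi1.S probe set was far brighter and overlapped between the sets. It averaged 11.81 in set 1 and 12.01 in set 2, so the first gives no direction for the gene. The histone deubiquitinase gene usp3.L averaged 6.13 ± 0.56 in set 1 and 3.92 ± 0.27 in set 2, and it was also higher in sex-reversed than in normal ovaries of each set, at 6.67 and 6.56 against 5.65 and 5.66 in set 1 and 4.08 and 4.22 against 3.75 and 3.64 in set 2. Its sex-reversed minus normal difference with the set in the fit was 0.71 ± 0.15 (SE) and did not pass in limma (adjusted p = 0.42). The MARVEL-domain gene cmtm8.L averaged 5.71 ± 0.63 in set 1 and 3.09 ± 0.21 in set 2.

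Smaller differences included an oocyte gene. The gene lmnb3.L encodes lamin LIII, the main nuclear lamin of the Xenopus oocyte. It measured 9.56 and 9.51 in sex-reversed and 9.22 and 8.94 in normal ovaries of set 1, against 8.43 and 8.04 in sex-reversed and 8.27 and 7.93 in normal ovaries of set 2, a difference of 1.14. The nuclear matrix gene matr3.S averaged 7.43 ± 0.11 in set 1 and 6.16 ± 0.35 in set 2. The adaptor gene nck1.S, which couples receptor tyrosine kinases to actin, averaged 7.5 ± 0.31 in set 1 and 6.3 ± 0.27 in set 2. The remaining named genes on this side were riox2.L, a ribosomal oxygenase gene (difference 1.44), reep3.L, which shapes endoplasmic reticulum (1.38), and MGC82378 (1.32).

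On the side lower in set 1, the largest difference among these named genes was in cipc.S, whose product binds the circadian factor CLOCK. It measured 5.63 and 5.99 in sex-reversed and 5.87 and 5.7 in normal ovaries of set 1, against 8.01 and 7.82 in sex-reversed and 7.93 and 7.87 in normal ovaries of set 2, a difference of -2.11. The single-strand DNA-binding gene nabp2.S averaged 7.04 ± 0.36 in set 1 and 9.11 ± 0.13 in set 2. The Hedgehog pathway transducer smo.L averaged 3.14 ± 0.09 in set 1, near the floor of the arrays, and 5.11 ± 0.41 in set 2. Another smo.L probe set ran the opposite way with overlap, at 6.11 in set 1 and 5.44 in set 2. The gene traip.L, a ubiquitin ligase of replisome disassembly in Xenopus egg extract, averaged 6.77 ± 0.22 in set 1 and 8.7 ± 0.36 in set 2, with normal replicate 3 at 8.16 below the other arrays of set 2. Another traip.L probe set, dim in both sets, ran the opposite way with overlap, at 3.56 in set 1 and 3.18 in set 2.

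Other genes of this side were separated cleanly though by less. The zinc finger gene zmym2.L averaged 8.56 ± 0.1 in set 1 and 10.1 ± 0.17 in set 2, and the chromatin reader gene l3mbtl3.S averaged 8.93 ± 0.12 in set 1 and 10.01 ± 0.1 in set 2. The ribosomal RNA processing gene nop9.L averaged 6.78 ± 0.02 in set 1 and 8.12 ± 0.24 in set 2. The named genes left were znf131.S (difference -1.86), the bile acid synthesis gene hsd3b7.L (-1.78), chchd5.L (-1.52), mal2.S, a gene of apical membrane transport (-1.36), and zc3h14.S, whose product binds poly(A) tails (-1.34). For the 198 probe sets of the class, 21 differed between sex-reversed and normal ovaries at an unadjusted p of 0.05 in limma, against 7.91% of all probe sets. The class was picked on these same values for sets that do not overlap, which favours a small spread once the set is fitted. Nothing is therefore read from the count of 21.

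**Figure D3:**
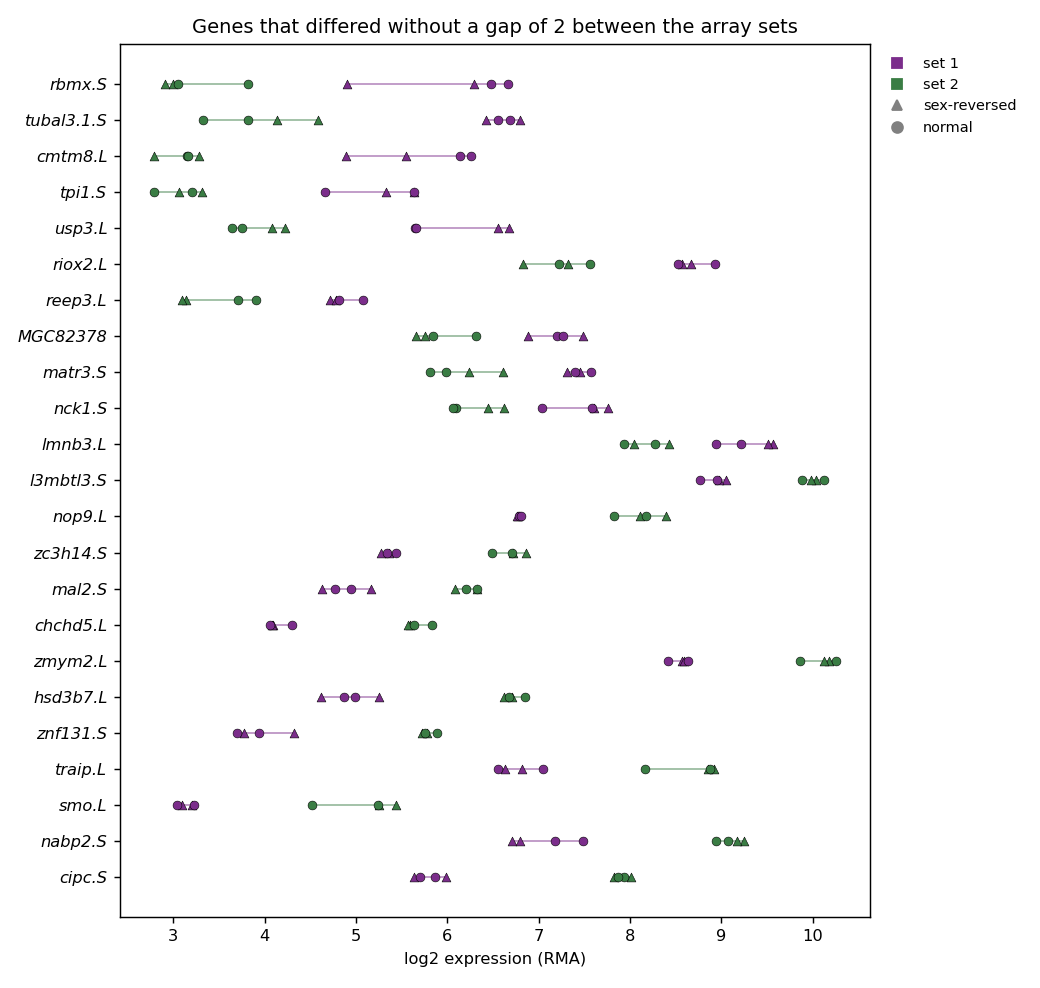
Log2 expression (RMA) on each array for the 23 continuous genes named here, with set 1 and set 2 in different colours, triangles for sex-reversed and circles for normal ovary and a line over the range of each set. The 11 genes at the top were higher in set 1, the 12 at the bottom lower, and no line of a gene touches its other line.

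Other probe sets and homeologs of these genes mostly overlapped between the sets. None of the named switch-like genes had a second probe set of the same symbol, and both measured homeologs ran the same way, 1 of them without overlap. For the continuous genes, 35 other probe sets of the same symbol were measured over 25 genes. Of these, 21 ran the same way and 14 the opposite way, with a median of 0.19 in the direction of the member, and 4 did not overlap between sets, 3 in the same direction and 1 in the opposite one. Among the continuous genes named above, other probe sets of usp3.L (0.95), rbmx.S (0.64) and zc3h14.S (-0.08) ran the same way. Those of tpi1.S (-0.2), smo.L (0.67) and traip.L (0.38) ran the opposite way, and those of matr3.S ran both ways (0.42 and -0.13). Among 22 measured homeologs, 9 ran the same way and 13 the opposite way, with a median of -0.07 and 2 without overlap. Probe sets of .S genes were without overlap between sets in 8.77% of 2714, and those of .L genes in 7.01% of 3868.

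List medians lay near 0, and most members overlapped between the sets. The lists were chosen with earlier results of these data known, and each gene counted once, by its probe set of highest mean. Over 5790 genes the median difference was 0.0, and 8.13% did not overlap between the sets. Over the 594 genes of any of 30 lists, 38 (6.4%) did not overlap, 11 of the 28 lists with 5 or more genes had no such member, and list medians ran from -0.14 to 0.21. All 43 cytosolic ribosomal protein genes but rps19.S (-0.24) overlapped, with a median of -0.03. Of 43 oxidative phosphorylation genes 3 did not overlap, ndufa4.L, a cytochrome c oxidase subunit, lower in set 1 (-0.58), and atp5mg.L of ATP synthase (0.36) and sdha.S of complex II (0.33) higher.

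Oocyte lists held a few genes with wide differences among many that overlapped. In the cell cycle list all but 3 of 80 genes overlapped between the sets. The exceptions were cdk7.L, the CDK-activating kinase (-1.95), fbxo5.S, the Emi1 inhibitor of the anaphase-promoting complex (0.86), and mcm5.L of the replicative helicase (0.73, or 0.32 without normal replicate 3). Another cdk7.L probe set ran the same way by less and with overlap (-0.47), at 4.12 in set 1 and 4.59 in set 2. The histone chaperone gene nasp.S measured 12.47 and 12.25 in sex-reversed and 12.3 and 12.25 in normal ovaries of set 1, against 9.48 and 9.43 in sex-reversed and 9.43 and 12.24 in normal ovaries of set 2. Its sets were separated by 0.01 only, because normal replicate 3 lay with set 1. Other nasp.S probe sets ran the same way by less and with overlap (0.35 and 1.03), and those of the homeolog nasp.L differed by -0.15 and 0.13 with overlap. None of 24 genes of oocyte mRNA storage, 12 histone genes, 10 steroid synthesis genes or 21 extracellular matrix genes was free of overlap in the probe set that counted for it. The counted probe set of the steroid enzyme gene cyp17a1.L overlapped but was lower in set 1 (-2.64). In it normal replicate 1 and sex-reversed replicate 3 lay apart, 3.41 below the next array. Another cyp17a1.L probe set was lower in set 1 without overlap (-1.44). The same arrays were lowest in it, at 6.25 in normal replicate 1 and 6.21 in sex-reversed replicate 3. The other arrays of set 1 lay at 7.74 and 7.81, against 7.98 to 8.9 in set 2. Of 13 follicle cell genes, 10 were lower in set 1 with a median of -0.13, the gap junction gene gja1.L (1.13) and gata4.S (-0.47) being without overlap. For gja1.L the gap rounded to 0.0, with 8.81 and 8.91 in sex-reversed and 7.75 and 7.29 in normal ovaries of set 1, against 6.84 to 7.29 in set 2. Another gja1.L probe set, dim in both sets, overlapped (-0.05). The gata4.S values were dim in both sets, at 2.96 in set 1 and 3.44 in set 2.

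The lists with the highest shares without overlap were small or mixed in direction. Of 39 glutathione and detoxification genes 7 (17.9%) did not overlap, 5 higher and 2 lower in set 1, and the median was -0.03. Besides the gsta1 pair these included cyp1a1.S, a cytochrome P450 induced through the aryl hydrocarbon receptor. It measured 5.79 and 6.46 in sex-reversed and 5.62 and 6.13 in normal ovaries of set 1, against 7.18 and 7.14 in sex-reversed and 7.21 and 7.49 in normal ovaries of set 2, a difference of -1.25. The glutathione synthetase gene gss.L differed by -1.0, from dim values in both sets, and aldh9a1.S by 0.74.

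Antigen presentation had the highest list median, at 0.21 over 10 genes, of which 3 (30.0%) did not overlap. The median was 0.04 without sex-reversed replicate 1, 0.14 without normal replicate 1, 0.15 without sex-reversed replicate 4 and 0.13 over all probe sets of the list, and in these runs another list was highest in size. The regulator of class II genes rfx5.L measured 7.87 and 7.83 in sex-reversed and 7.92 and 7.79 in normal ovaries of set 1, against 5.23 and 5.32 in sex-reversed and 6.99 and 7.27 in normal ovaries of set 2. The sex-reversed ovaries of set 2 thus stood apart from all other arrays. The light chain gene b2m.S was lower in set 1 (-0.64, or -0.4 without normal replicate 3) and the chaperone gene calr.S higher (0.53). Leukocyte genes had a median of -0.04 over 15 genes with 0 free of overlap, and erythrocyte genes 0.04 over 15.

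**Figure D4:**
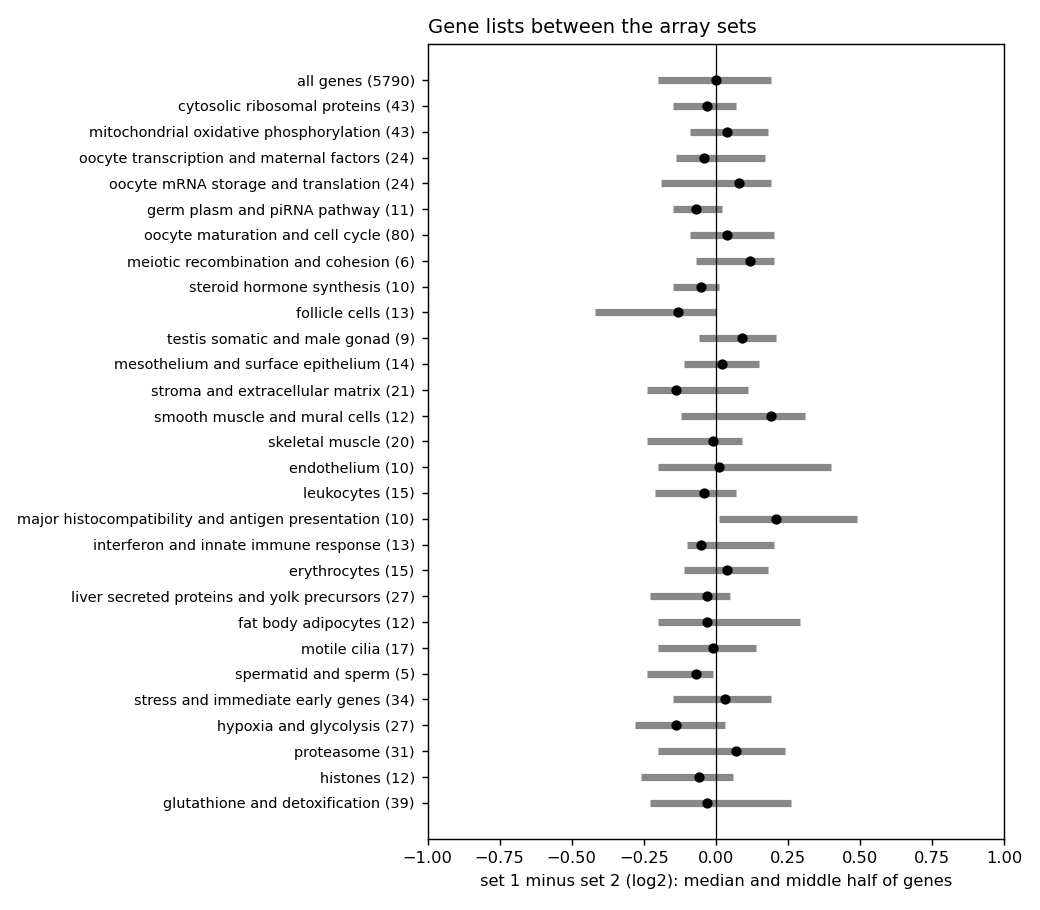
Set 1 minus set 2 (log2) for the 28 gene lists with 5 or more measured genes and for all 5790 genes, as the median (point) and the span from the lower to the upper quartile of the genes (bar), with the number of genes in brackets. Medians lie between -0.14 and 0.21, and the bars cover or lie near 0.

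With the set as a covariate, no probe set passed for sex reversal. The comparison is balanced over the sets and was not used to find them. The sets were found in the same values, though, and a grouping chosen that way lowers the residual spread, so p values of fits that hold the set are too small. In limma 0 probe sets (0.0%) passed an adjusted p of 0.05, the lowest adjusted p was 0.149, and 908 had an unadjusted p under 0.05. Without the set in the fit 0 passed, the lowest adjusted p was 0.434 and 733 had an unadjusted p under 0.05. The median residual SD was 0.285 with the set and 0.305 without it.

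The named gene with the smallest p was ubtf.S, the RNA polymerase I factor of ribosomal DNA. It measured 5.88 and 6.23 in sex-reversed and 5.07 and 4.99 in normal ovaries of set 1, and 7.25 and 7.11 in sex-reversed and 5.55 and 5.56 in normal ovaries of set 2. The groups did not overlap within either set, and the difference was 1.32 ± 0.17 (SE, limma adjusted p = 0.219). The retinal reductase gene dhrs3.L measured 6.31 and 6.32 in sex-reversed and 7.41 and 7.5 in normal ovaries of set 1, and 4.71 and 5.34 in sex-reversed and 6.67 and 6.95 in normal ovaries of set 2. Its difference was -1.46 ± 0.2 (SE, limma adjusted p = 0.29). Other genes of small p were fzd7.L, a Wnt receptor (1.07), the gonad factor lhx9.L (0.96), the glucocorticoid receptor nr3c1.L (1.19), slc35e1.L (-1.13) and stau1.L, which binds double-stranded RNA (-0.85). The other 12 genes ranked by p had differences of 0.61 to 2.12 (5 genes) and -1.43 to -0.63 (7 genes), with adjusted p of 0.351 to 0.42, and none of the 20 passed.

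Inside set 1, sex-reversed replicates 3 and 4 differed from normal replicates 1 and 4 in 55 probe sets (0.479%) in limma at an adjusted p of 0.05, 27 of which rose and 28 of which fell. Inside set 2, sex-reversed replicates 1 and 2 differed from normal replicates 2 and 3 in 10 probe sets (0.0871%), of which 3 rose and 7 fell. These fits gave each set its own sex-reversed and normal mean and shared the spread over 8 arrays, with 4 residual degrees of freedom. At an unadjusted p of 0.05 they held 771 probe sets in set 1 and 778 in set 2, and 0 passed in both sets. The difference between the sets in the effect of sex reversal passed in 30 probe sets (0.261%), 17 with a higher and 13 with a lower effect in set 1, and 640 had an unadjusted p under 0.05. The sets came from these same values, so the calls describe these arrays and their p values are not independent of the grouping. Of the 30, 23 also passed inside set 1 and 6 inside set 2. With 1 array left out the 30 became 51 without normal replicate 2, 18 without normal replicate 4, 17 without sex-reversed replicate 1 or 4 and 12 without sex-reversed replicate 2. The 10 of set 2 became 46 without normal replicate 2, 20 without normal replicate 3, 3 without sex-reversed replicate 2 and 5 without any single array of set 1.

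In most of these calls 1 pair of arrays stood apart from the other 6. Counting a pair as apart when it lay 1 log2 or more from all others, the sex-reversed pair of set 1 did so in 22 of the 55 calls, 18 of them low. The normal pair of set 1 did so in 26, 19 of them low, and no pair did in 7. Of the 10 calls of set 2, the sex-reversed pair was apart in 9 and the normal pair in 1. Of the 55 probe sets 29 also had a gap of 2 or more among the sorted arrays, as did 7 of the 10 and 24 of the 30, against 2.46% of all probe sets. A call inside a set needs its sex-reversed and normal pairs to differ widely for their spread. A pair or gap apart is thus partly built into the calls, and nothing is read from these counts. The share of all probe sets with a pair 1 log2 apart is not given here. Pairs of both study groups stood apart by such a gap as well, as counted above, and the part of the set grouping in these calls was not tested.

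Among named genes with a higher effect in set 1, elovl7.S, a fatty acid elongase, was low in the normal pair of set 1. It measured 10.31 and 10.25 in sex-reversed and 6.99 and 6.92 in normal ovaries of set 1, against 10.29 and 10.25 in sex-reversed and 10.35 and 10.34 in normal ovaries of set 2. The difference in effect was 3.4 ± 0.25 (SE, limma adjusted p = 0.00795). The mesd.L gene, a chaperone of LDL receptor family proteins, had the same pattern, at 8.32 and 7.6 in sex-reversed and 3.24 and 3.04 in normal ovaries of set 1, against 8.08 and 7.99 in sex-reversed and 7.65 and 7.57 in normal ovaries of set 2 (4.39 ± 0.38, limma adjusted p = 0.00958). The elovl7.S call held with any 1 array left out, and that of mesd.L was lost without sex-reversed replicate 2 (adjusted p = 0.0595).

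The spindle checkpoint kinase gene bub1b.L was high in the sex-reversed pair of set 1 instead. It measured 9.36 and 9.33 in sex-reversed and 5.7 and 6.14 in normal ovaries of set 1, against 5.44 and 5.59 in sex-reversed and 5.91 and 5.83 in normal ovaries of set 2 (3.78 ± 0.31, limma adjusted p = 0.00958). The gene kansl2.S, a subunit of the NSL histone acetyltransferase complex, was low in the sex-reversed pair of set 2. It measured 8.78 and 8.94 in sex-reversed and 8.7 and 8.88 in normal ovaries of set 1, against 3.71 and 3.22 in sex-reversed and 8.24 and 8.7 in normal ovaries of set 2 (5.07 ± 0.37, limma adjusted p = 0.00795). Between sex-reversed and normal ovaries kansl2.S thus fell inside set 2 (-5.0, limma adjusted p = 0.00134), and its difference inside set 1 was 0.07. The calls of both genes held with any 1 array left out.

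Probe sets of bloc1s6.S, a subunit of the complex that builds lysosome-related organelles, moved in opposite directions. One measured 8.89 and 8.87 in sex-reversed and 4.33 and 4.92 in normal ovaries of set 1, against 8.79 and 8.81 in sex-reversed and 8.85 and 8.84 in normal ovaries of set 2 (4.31 ± 0.33, limma adjusted p = 0.0087). Another measured 5.45 and 4.75 in sex-reversed and 9.46 and 9.67 in normal ovaries of set 1, against 5.52 and 5.65 in sex-reversed and 5.62 and 5.43 in normal ovaries of set 2 (-4.52 ± 0.38, limma adjusted p = 0.00958). The same normal pair was apart in both, low in the first and high in the second, and the second call was lost without sex-reversed replicate 2 (adjusted p = 0.0583). Of the other bloc1s6.S probe sets, one followed the first (3.5, limma adjusted p = 0.0151, passing in 4 of 8 runs with 1 array left out) and one did not pass (0.85), so the probe sets of bloc1s6.S give no single direction for the gene.

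Among genes with a lower effect in set 1, rdh10.S, the retinol dehydrogenase of retinoic acid synthesis, measured 6.6 and 7.04 in sex-reversed and 9.8 and 9.8 in normal ovaries of set 1, against 9.98 and 9.79 in sex-reversed and 9.59 and 9.84 in normal ovaries of set 2 (-3.15 ± 0.32, limma adjusted p = 0.0151). The ribosomal stalk gene rplp2.L measured 3.4 and 3.52 in sex-reversed and 7.09 and 7.11 in normal ovaries of set 1, against 6.68 and 6.59 in sex-reversed and 6.32 and 7.04 in normal ovaries of set 2 (-3.59 ± 0.37, limma adjusted p = 0.0166). In both genes the sex-reversed pair of set 1 was low alone, and tgs1.L, which trimethylates the cap of small nuclear RNAs, had the same pattern (-3.23 ± 0.35, limma adjusted p = 0.019). In tprkb.S, a subunit of the KEOPS tRNA-modifying complex, the effect had opposite signs, -1.49 inside set 1 and 2.22 inside set 2 (difference -3.71 ± 0.36, limma adjusted p = 0.0151), and neither passed within its set (adjusted p = 0.0991 in set 1 and 0.0521 in set 2). These calls passed in fewer runs than most of those above. Of 8 runs with 1 array left out, rdh10.S and tprkb.S passed in 4 each and rplp2.L and tgs1.L in 2 each. Every such run also has fewer residual degrees of freedom. The differences themselves kept their size, at -3.365 to -2.928 for rdh10.S and -3.949 to -3.473 for tprkb.S. For rplp2.L they were -3.956 to -3.23 and for tgs1.L -3.5 to -2.958. Their adjusted p reached 0.0795 for rdh10.S, 0.0659 for tprkb.S, 0.0938 for rplp2.L and 0.0789 for tgs1.L. All 4 were lost without sex-reversed replicate 2, and all 4 without normal replicate 4.

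**Figure D5:**
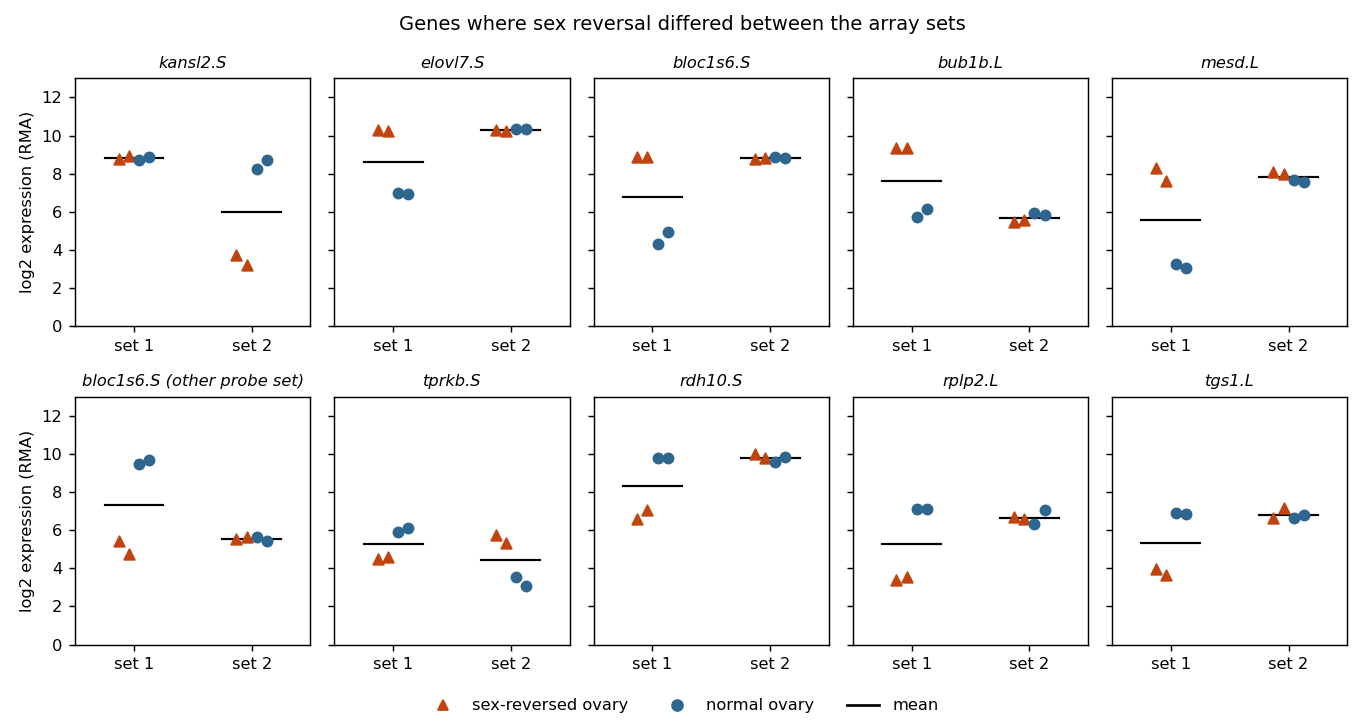
Log2 expression (RMA) of the 10 named probe sets whose effect of sex reversal differed between the sets, set 1 at the left and set 2 at the right of each panel, with triangles for sex-reversed ovary, circles for normal ovary and a line at the mean of the 4 arrays. The upper row has a higher effect in set 1 and the lower row a lower one, and in 9 of 10 panels 1 pair of arrays lies apart from the other 6.

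The genes ccnb2.S and rpl27.S, chosen with earlier results of these data known, were also viewed by set. Neither passed between all sex-reversed and all normal ovaries with the set in the fit (limma adjusted p = 0.498 and 0.47). The B-type cyclin gene ccnb2.S measured 12.21 and 11.65 in sex-reversed and 8.17 and 8.09 in normal ovaries of set 1, against 12.26 and 12.23 in sex-reversed and 11.75 and 11.84 in normal ovaries of set 2. It rose by 3.8 with sex reversal inside set 1 (limma adjusted p = 0.00124), the difference inside set 2 was 0.45, and the effects differed between the sets (3.35, adjusted p = 0.0151). The rise inside set 1 passed with any 1 array left out, and the difference between the sets in 3 of those 8 runs, being lost without normal replicate 1, 3 or 4 or sex-reversed replicate 1 or 2. The ribosomal protein gene rpl27.S measured 3.23 and 2.6 in sex-reversed and 7.11 and 6.93 in normal ovaries of set 1, against 3.55 and 6.83 in sex-reversed and 6.85 and 7.0 in normal ovaries of set 2. It was low in 3 of 4 sex-reversed ovaries from both sets, and its effect did not pass inside a set or between the sets (limma adjusted p = 0.26, 0.78 and 0.913).

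In limma 0 of the 15 switch-like probe sets passed inside set 1, inside set 2 or in the difference between the sets, where 0.479%, 0.0871% and 0.261% of all probe sets passed, so a count of 0 says nothing particular of them. In that difference 2 of the 198 continuous ones passed, and as these were picked on the same values nothing is read from that count.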

How the data were processed

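Total RNA of 8 ovaries was extracted with RiboPure and labelled with biotin, per the labels' protocols. The authors deposited 1 log2 value per probe set and array. Per the submitters' processing notes these came from RMA, with no version named. The log base was read as 2 from the range of the values. Detection above background was not analysed here. RMA brings arrays to a common distribution, so a shift shared by most transcripts would not show.

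Genes were named from GEO's annotation of the array, possibly dated, where a probe set had 1 symbol (6798 had 1, 110 several and 4577 none). The gap is the distance between the lowest array of the higher set and the highest array of the lower set. Differences came from lmFit and eBayes (R 4.3.3, limma 3.58.1) with set and group, and effects within sets from 4 means, two-sided, with Benjamini-Hochberg adjustment over all probe sets. Figures used Python 3.11.15 and matplotlib 3.10.9. The code was tested on simulated data.

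The sets, the gene lists, ccnb2.S and rpl27.S were chosen with earlier results of these data known. The rule for named genes took up to 15 switch-like genes per direction by gap, up to 12 continuous ones by moderated t as a ranking, up to 3 members per list by size of difference, up to 10 per direction for sex reversal and up to 5 for the difference between the sets. Not every gene that it took is named, and the result of 1 is not reported here. Replicate numbers were not used to pair the arrays, since the labels used here do not state kinship. The correlation of the deviations of same-numbered arrays after set and group was 0.248, -0.22, 0.178 and -0.221 for numbers 1 to 4. The fit itself pulls these values below 0 for arrays of the same set and above 0 for arrays of different sets. They therefore cannot show whether the numbers pair the arrays.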

Additional observations from a re-analysis of the deposited data

Results flagged for a closer look

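Named genes in which 1 of the 4 arrays of a set stood apart from the other 3 by Dixon's criterion for 4 values are given by array. The rule was applied 192 times, and chance flags about 1 in 20 such groups. Normal replicate 3 stood apart in set 2 for rbmx.S (3.82, others 2.91 to 3.05), vps4a.L (8.06, others 7.56 to 7.62), traip.L (8.16, others 8.85 to 8.92), nasp.S (12.24, others 9.43 to 9.48), ddx4.L, a germ cell RNA helicase (10.93, others 10.28 to 10.35), and mcm5.L (7.91, others 9.53 to 9.62). Sex-reversed replicate 1 stood apart in set 2 for rpl27.S (3.55, others 6.83 to 7.0) and a probe set of bloc1s6.S (5.5, others 6.04 to 6.14).

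In set 1, normal replicate 1 stood apart for nit2.S (8.91, others 8.15 to 8.25), sdha.S (5.82, others 5.51 to 5.53) and the proteasome gene psma2.L (4.82, others 3.83 to 3.97). Sex-reversed replicate 3 did so for gsta1.L (7.87, others 10.78 to 11.2) and normal replicate 4 for chchd5.L (4.3, others 4.06 to 4.09).

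The sets came from these same values, so p values of the limma contrast of the effects are too small. By that contrast the effect of sex reversal passed as different between the sets in 30 probe sets (0.261%). The named ones were kansl2.S (5.07), elovl7.S (3.4), bub1b.L (3.78), mesd.L (4.39), tprkb.S (-3.71), rdh10.S (-3.15), rplp2.L (-3.59), tgs1.L (-3.23) and a probe set each way of bloc1s6.S (4.31 and -4.52).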

How the results depend on the processing

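The 15 switch-like probe sets were 5 at a gap of 3 or more and 8 with 1 probe set per named gene, and 17 to 31 when each array was left out. A gap over fewer arrays can only widen, so those counts rise by construction. They were over 1.5 times the full count without normal replicate 1 (28), normal replicate 3 (31), normal replicate 4 (25), sex-reversed replicate 3 (23) or sex-reversed replicate 4 (26). The 198 continuous ones were 435 at a difference of 1.5-fold or more, 101 with 1 probe set per gene and 238 to 279 with an array left out. The replicate block gave 202 continuous probe sets and 0 passing for sex reversal, and it was not run for the fits within sets.

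For sex reversal with the set in the fit, the count of 0 became 1 with a trended robust prior, a probe set without a symbol (1.58, adjusted p = 0.0366). Leaving out an array gave 0 to 1 in limma, the passing probe set being an unnamed one without normal replicate 1 (2.44), tpst2.L without normal replicate 3 (2.31) and rpl27.S without sex-reversed replicate 2 (-3.81). The 30 differences between the sets were 12 to 51 with an array left out: 12 without sex-reversed replicate 2, 17 without sex-reversed replicate 1 or 4, 18 without normal replicate 4 and 51 without normal replicate 2. Of the named ones, kansl2.S, elovl7.S, bub1b.L and the first bloc1s6.S probe set passed in all 8 such runs, rdh10.S and tprkb.S in 4, ccnb2.S in 3, and rplp2.L and tgs1.L in 2. The 55 calls inside set 1 were 39 to 65. The 10 inside set 2 were 25 with the robust prior and 3 to 46 with an array left out: 46 without normal replicate 2, 20 without normal replicate 3, 5 without either normal or either sex-reversed array of set 1, and 3 without sex-reversed replicate 2. In the runs without an array the sets were kept as found with all 8 arrays. Leaving out an array leaves 1 of a pair, assumed to vary like the rest, and the cause of the other changes was not tested. The largest median in size over the lists was 0.212 with all arrays (antigen presentation), and with an array left out it lay between 0.148 (follicle cells, without normal replicate 1) and 0.289 (antigen presentation, without sex-reversed replicate 2). Antigen presentation itself reached 0.04 without sex-reversed replicate 1. Moving sex-reversed replicate 4 to the normal group was run only on the count for sex reversal with the set in the fit, which stayed 0. A filter on dim probe sets, median centring and repeated quantile normalization, each for the results it was run on, moved no count by over 1.5 times and turned no direction. For named differences, lists and fits within sets these runs were chosen after seeing the data, as were the runs without single arrays for the fits within sets.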
